A study of Glycine max with 12 samples.

Results

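Heat response genes of soybean root were taken as the rows of the deposited table whose Gene Ontology column holds the term response to heat and lacks the term heat shock protein binding. The rule found 71 of 49128 genes and left out 19 further genes that carry both terms. It used annotation alone and no measured value. The name heat response chaperones fits 56 of the 71, which carry a term for protein folding, protein refolding or unfolded protein binding. The other 15 carry none of these terms.

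Heat, metals and oxidation unfold proteins, and cells answer with chaperones. Small heat shock proteins form oligomers that hold unfolding clients without using ATP, and ATP-driven chaperones of the Hsp70, Hsp90 and Hsp100 families then refold them. Plants have many small heat shock protein genes, with products in the cytosol, the endoplasmic reticulum, the peroxisome and other organelles. Their transcripts are scarce in unstressed vegetative tissue and rise steeply on heating.

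RNA from Williams 82 soybean (Glycine max) roots was sequenced in 12 libraries, 3 in each of the groups control, Cd (cadmium), control+OP and Cd+OP, where OP stands for the bacterium Oceanobacillus picturae named in the series title. A dose of 70 mg/L Cd stands in the labels of all 12 samples, controls included, so no group could be given a dose. The sources used here do not state the age of the plants, the time of exposure or how the bacterium was applied, nor whether replicates came from separate plants. The p-values therefore measure the spread between these libraries, which may be technical. Total counts were 49904227 to 57693211 per library. Levels are given in FPKM (fragments per kilobase of transcript, scaled to the depth of the library), as deposited and in the order of replicates 1, 2 and 3. Changes are log2 fold changes ± SE from edgeR's quasi-likelihood test over all 12 libraries, two-sided, with Benjamini-Hochberg adjustment over the 30340 genes whose mean reached 1 FPKM. A gene is said to have risen or fallen where the adjusted p was under 0.05. In bulk root, fewer cells of a type and less RNA per cell cannot be told apart.

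Of the 71 members, 48 carry the term protein complex oligomerization and are called small heat shock type genes here. The 5 symbols among them are HSP17.3-B, HSP17.5-E, HSP17.5-M, HSP17.9-D and HSP22.0. A further 5 genes are annotated with protein refolding and ATP hydrolysis. Another 3 carry protein folding, among them HOP1 (GLYMA_17G137700), whose product links Hsp70 to Hsp90, and GLYMA_06G108000, annotated as a nucleotide exchange factor of the mitochondrial import motor. The remaining members are 4 DNA repair genes, 2 genes for regulation of abscisic acid synthesis, HSP26-A (GLYMA_07G139700, annotated as a glutathione transferase), the phosphoglycerate kinase gene GLYMA_08G165400, the SUMO gene GLYMA_08G320500 (a small protein tag) and 6 genes with no more specific term. Symbols are given for 7 of the 71 members, so most are called by identifier. Positions were copied from the deposited table; its build was not given in the sources used here.

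Most small heat shock type genes were scarce in these roots. A mean of at least 1 FPKM was reached by 32 of 71 members, 19 of them small heat shock type genes, and 29 small heat shock type genes stayed below it. Counts above 0 were found in all 12 libraries for 40 members, in 1 to 11 libraries for 30, and in no library for GLYMA_04G054500. The highest mean of a small heat shock type gene was 19.2 FPKM, for GLYMA_11G134200. The SUMO gene had a mean of 133 FPKM, phosphoglycerate kinase 98.1 FPKM, the abscisic acid regulation gene GLYMA_07G226600 82.99 FPKM and HSP26-A 65.7 FPKM. Of the 19 tested small heat shock type genes, 8 had a mean under 1 FPKM in at least 1 group and so passed the filter through the groups where they were high. Counts over the tested members below describe those members and support no statement on the whole family.

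Summed over all 48 genes, the small heat shock type level was 106, 99.03 and 102 FPKM in control and 111, 119 and 119 FPKM in Cd. With the bacterium it was 63.3, 69.9 and 62.4 FPKM in control+OP and 88.1, 87.2 and 84.6 FPKM in Cd+OP. The 4 groups did not overlap in this sum, which was lowest with the bacterium alone and highest with Cd alone. The genes that made up the sum differed between groups. GLYMA_11G134200 held 31.2, 30.3 and 31.1% of it in control and 9.52, 9.63 and 10.5% in Cd. GLYMA_13G176300 held 6.12, 6.96 and 6.54% in control and 20.6, 20.3 and 20.7% in Cd.

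**Figure D1:**
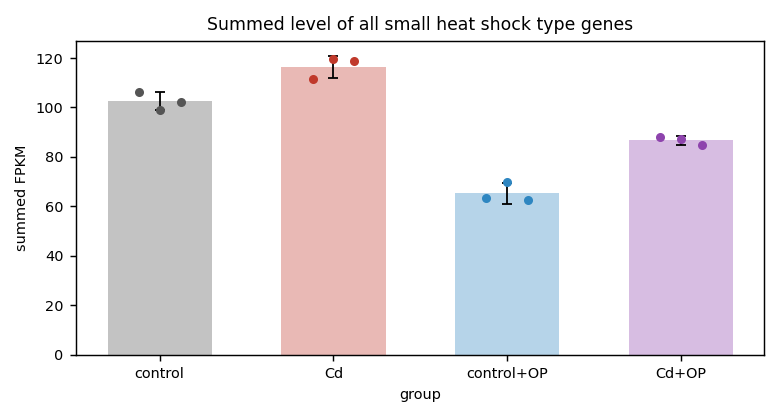
Summed FPKM of all 48 small heat shock type genes by group; bars are means, error bars SD and points the 3 libraries. The sum lay at 62.4 to 69.9 FPKM in control+OP and at 111 to 119 FPKM in Cd.

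The metal alone was examined by setting Cd against control. Several small heat shock type genes were severalfold higher with Cd, while the most abundant of them was lower. GLYMA_13G176300 (chromosome 13, 29056380 to 29057454, annotated to the cytoplasm) stood at 6.51, 6.90 and 6.68 FPKM in control and at 22.9, 24.2 and 24.5 FPKM in Cd. Every Cd library lay above every control library, and the gene rose (log2 1.83 ± 0.091, adjusted p = 2.17e-15, edgeR, n = 3 per group). GLYMA_07G200200 (chromosome 7, 36874489 to 36875487), also cytoplasmic by annotation, went from 4.24, 2.55 and 3.15 FPKM to 15.6, 16.5 and 16.3 FPKM (log2 2.28 ± 0.14, adjusted p = 2.53e-13, edgeR).

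The rises at low levels rest on fewer counts. HSP17.3-B (GLYMA_08G069000, chromosome 8, 5277200 to 5278222) stood at 0.996, 0.905 and 1.26 FPKM in control and 2.12, 3.07 and 2.42 FPKM in Cd, from 58 to 76 and from 134 to 191 counts per library. It rose (log2 1.26 ± 0.26), as did its neighbour GLYMA_08G068800 (log2 1.46 ± 0.29). GLYMA_06G157800 stood at 3.33, 1.91 and 1.86 FPKM in control and 6.57, 6.66 and 8.54 FPKM in Cd (log2 1.62 ± 0.25). GLYMA_14G214800, annotated to the peroxisomal matrix, had the highest fold among the tested members and few counts. It was at 0.491, 0 and 0.289 FPKM in control, with 0 to 26 counts, and at 1.30, 2.60 and 1.86 FPKM in Cd, with 64 to 124 counts (log2 2.82 ± 0.47, adjusted p = 7.28e-06, edgeR).

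Other small heat shock type genes fell. GLYMA_11G134200 (chromosome 11, 10256189 to 10257197) stood at 33.2, 30.05 and 31.7 FPKM in control and 10.6, 11.5 and 12.4 FPKM in Cd, with no overlap (log2 -1.45 ± 0.084, adjusted p = 4.26e-14, edgeR). GLYMA_19G011400 went from 1.35, 1.29 and 1.73 to 0.606, 0.553 and 0.557 FPKM (log2 -1.33 ± 0.25). GLYMA_13G205800 and GLYMA_12G058200 fell by 0.82 and 0.32 on the log2 scale. Of 19 tested small heat shock type genes 8 (42.1%) rose and 6 (31.6%) fell, near the 37.6% and 38.7% of all tested genes, and 6 and 4 of these calls held under all of the 21 alternative settings that tested the gene, which is what holding under every alternative means below.

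Among the refolding genes annotated with ATP hydrolysis, GLYMA_04G062200 stood at 4.64, 4.50 and 4.13 FPKM in control and 8.87, 8.18 and 7.90 FPKM in Cd (log2 0.91 ± 0.087, adjusted p = 9.22e-10, edgeR). GLYMA_13G058600 rose by 0.53, and the others tested, GLYMA_18G264400 and GLYMA_19G027900, were at log2 -0.15 ± 0.15 and log2 -0.14 ± 0.12 with overlapping libraries. HOP1 fell from 12.9, 14.5 and 13.5 to 8.23, 9.29 and 8.33 FPKM (log2 -0.66 ± 0.077). HOP1 and GLYMA_04G062200 thus moved in opposite directions.

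Of the members without a folding term, the exonuclease family DNA repair gene GLYMA_01G077200 was at 18.3, 18.3 and 18.8 FPKM in Cd and 6.66, 6.99 and 7.12 FPKM in control (log2 1.42 ± 0.047, adjusted p = 4.63e-19, edgeR). GLYMA_20G248800, which has no symbol but is described in the table as KU70 by projection from Arabidopsis thaliana (a protein that binds broken DNA ends), fell by 0.32. Phosphoglycerate kinase, an enzyme of carbon metabolism, went from 173, 164 and 161 to 53.9, 52.96 and 53.6 FPKM (log2 -1.63 ± 0.035, adjusted p = 5.21e-23, edgeR). GLYMA_07G226600 went from 93.6, 94.7 and 98.8 to 48.6, 49.8 and 44.8 FPKM (log2 -1.002 ± 0.042). HSP26-A fell by 0.27, and the SUMO gene was at log2 0.03 ± 0.039 with overlapping groups.

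Over the tested members, 12 of 32 (37.5%) rose and 12 (37.5%) fell with Cd. Over all tested genes 37.6% rose and 38.7% fell, 76.2% together, so the members were called about as often as other genes. At least 2-fold rises were seen in 7 members (21.9%), against 8.60% of all tested genes, and at least 2-fold falls in 4 (12.5%), against 16.4%. Among the rises, GLYMA_14G214800 had a control mean of 0.260 FPKM and passed the filter only through other groups. GLYMA_08G068800 and HSP17.3-B, with overall means of 1.22 and 1.04 FPKM, passed it through their Cd means of 3.26 and 2.54 FPKM. The share of at least 2-fold rises is therefore not set against that of all genes on equal terms. The median change was -0.13 for the tested members and 0.003 for all tested genes on the log2 scale. The calls not held under every alternative were the rises of GLYMA_02G244300, GLYMA_06G108000 and GLYMA_13G176500 and the falls of HSP17.5-E (GLYMA_13G176200) and GLYMA_15G106700.

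**Figure D2:**
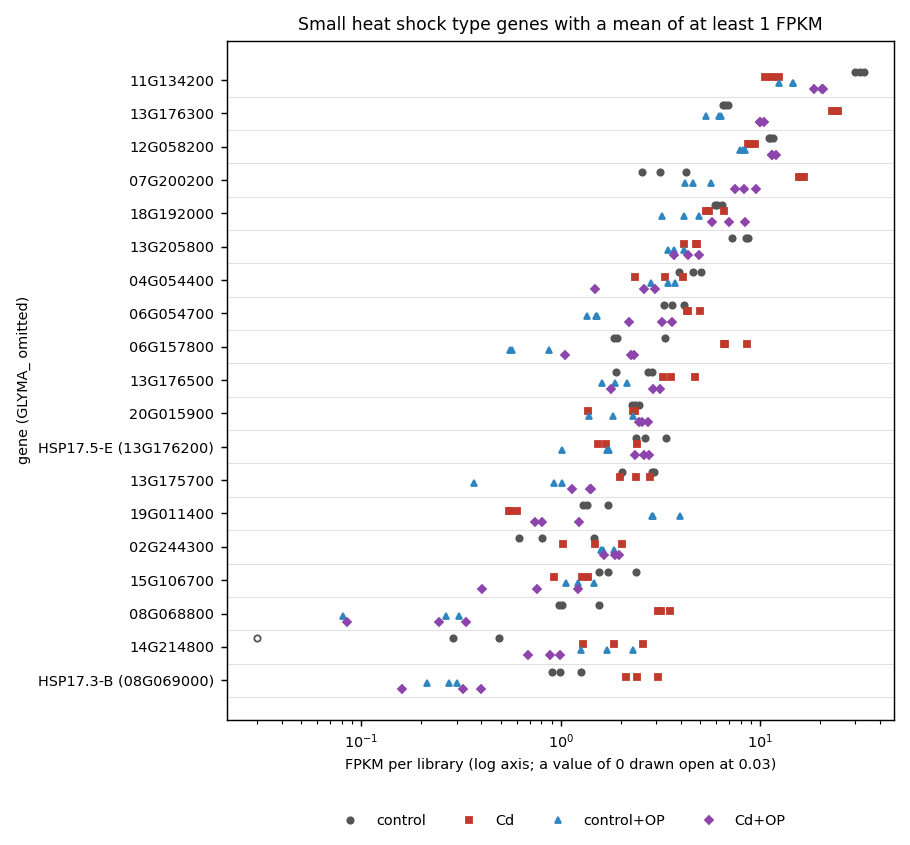
FPKM of the 19 tested small heat shock type genes in each of the 12 libraries, on a log axis, ordered by mean level; symbols mark the 4 groups. GLYMA_08G068800 and HSP17.3-B lay at 0.0812 to 0.399 FPKM in the 6 libraries with OP and at 2.12 to 3.52 FPKM in the 3 Cd libraries.

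The effect of the bacterium under the metal was examined by setting Cd+OP against Cd. Several genes that had risen with Cd alone were lower when the bacterium was present. HSP17.3-B was at 2.12, 3.07 and 2.42 FPKM in Cd and 0.159, 0.399 and 0.325 FPKM in Cd+OP, where the counts were 10 to 26 (log2 -3.13 ± 0.3, adjusted p = 8.4e-10, edgeR, n = 3 per group). GLYMA_08G068800 went from 3.17, 3.52 and 3.08 to 0.244, 0.336 and 0.0850 FPKM (log2 -3.88 ± 0.36, adjusted p = 5.93e-10, edgeR). Both genes were far below their level in Cd in every Cd+OP library. GLYMA_06G157800 fell from 6.57, 6.66 and 8.54 to 1.05, 2.34 and 2.24 FPKM (log2 -2.01 ± 0.26).

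GLYMA_13G176300 stood at 9.99, 9.96 and 10.4 FPKM in Cd+OP and fell (log2 -1.31 ± 0.089, adjusted p = 1.49e-12, edgeR). GLYMA_07G200200 stood at 9.52, 8.30 and 7.51 FPKM and fell (log2 -1.01 ± 0.13). Their Cd+OP libraries lay below every Cd library and above every control library. GLYMA_13G175700 and GLYMA_06G054700 fell by 0.92 and 0.66. The abundant GLYMA_11G134200 rose to 20.4, 20.6 and 18.7 FPKM (log2 0.72 ± 0.084, adjusted p = 4.05e-08, edgeR), and GLYMA_12G058200 rose by 0.30.

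The refolding gene GLYMA_04G062200 fell to 4.24, 4.24 and 4.23 FPKM (log2 -1.04 ± 0.088, adjusted p = 9.7e-11, edgeR), within the range of the control libraries. The DNA repair gene GLYMA_01G077200 fell by 0.60, to 13.3, 12.9 and 12.2 FPKM. HSP26-A rose from 51.6, 52.8 and 54.1 to 94.97, 95.3 and 92.4 FPKM (log2 0.76 ± 0.039, adjusted p = 3.86e-15, edgeR), above its level in every library of the other groups. GLYMA_07G226600 rose to 90.04, 91.9 and 92.6 FPKM (log2 0.87 ± 0.042), and phosphoglycerate kinase rose by 0.22.

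Of 32 tested members 8 (25.0%) rose and 15 (46.9%) fell in Cd+OP against Cd, where 36.4% of all tested genes rose and 34.6% fell, 71.0% together. No member rose at least 2-fold, against 14.5% of all tested genes, and 7 (21.9%) fell at least 2-fold, against 5.21%. Of these falls, GLYMA_08G068800, HSP17.3-B and GLYMA_14G214800 had Cd+OP means of 0.222, 0.294 and 0.854 FPKM and passed the filter only through other groups. Of the 19 tested small heat shock type genes 10 (52.6%) fell, as did 5 of the 13 other tested members (38.5%). The median was -0.24 for the tested members and 0.001 for all tested genes. Of the 15 falls 10 held under every alternative, and those of GLYMA_04G054400, GLYMA_06G108000, GLYMA_13G176500, GLYMA_14G214800 and GLYMA_19G027900 did not. Of the 8 rises 6 held, and those of HOP1 and GLYMA_19G011400 did not. The comparison shares its Cd libraries with the one before it.

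The bacterium without the metal was examined by setting control+OP against control. Most tested small heat shock type genes that passed the test were lower with it. GLYMA_11G134200 went from 33.2, 30.05 and 31.7 to 12.4, 14.7 and 14.6 FPKM (log2 -1.18 ± 0.083, adjusted p = 3.94e-12, edgeR, n = 3 per group). HSP17.3-B went from 0.996, 0.905 and 1.26 to 0.274, 0.213 and 0.300 FPKM (log2 -1.96 ± 0.31, adjusted p = 6.89e-06, edgeR). GLYMA_08G068800 went from 1.02, 0.981 and 1.56 to 0.309, 0.265 and 0.0812 FPKM (log2 -2.37 ± 0.38). The groups did not overlap in any of these, although HSP17.3-B was down to 14 to 19 counts per library.

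GLYMA_06G157800, GLYMA_13G175700, GLYMA_06G054700 and GLYMA_13G205800 fell (log2 -1.80, -1.75, -1.32 and -1.10). HSP17.5-E, GLYMA_18G192000 and GLYMA_12G058200 were at log2 -0.90, -0.58 and -0.46 and also fell. GLYMA_19G011400 rose to 2.91, 3.96 and 2.87 FPKM (log2 1.16 ± 0.22, adjusted p = 6.47e-05, edgeR). The peroxisomal type gene GLYMA_14G214800 rose to 1.27, 2.30 and 1.70 FPKM (log2 2.70 ± 0.47, adjusted p = 2.11e-05, edgeR), within the range of the Cd libraries save for 1 library just below it.

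Outside the small heat shock type the changes were smaller. Phosphoglycerate kinase fell to 111, 105 and 105 FPKM (log2 -0.63 ± 0.034). GLYMA_04G062200 fell by 0.40 and HSP26-A by 0.30, whereas GLYMA_13G058600 and the SUMO gene rose by 0.47 and 0.28. HOP1 and GLYMA_07G226600 were at log2 -0.06 ± 0.076 and log2 0.02 ± 0.041, with overlapping libraries.

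Of 32 tested members 8 (25.0%) rose and 13 (40.6%) fell, where 34.6% of all tested genes rose and 27.2% fell, 61.8% together. At least 2-fold rises were seen in 2 members (6.25%), against 5.49% of all tested genes. At least 2-fold falls were seen in 7 members (21.9%), all of the small heat shock type, against 6.97%. Of these, GLYMA_06G157800, GLYMA_08G068800, HSP17.3-B and GLYMA_13G175700 had control+OP means of 0.664, 0.218, 0.263 and 0.770 FPKM. They passed the filter only through other groups, so this share is not set against that of all genes on equal terms. The median was -0.33 for the tested members and 0.06 for all tested genes. All 13 falls held under every alternative that tested the gene. Of the 8 rises 5 held. Those of GLYMA_02G244300, GLYMA_07G200200 and GLYMA_20G248800 were lost without control library 1 or 3, without control library 2 and without control library 2, with adjusted p up to 0.125, 0.0551 and 0.163 (edgeR).

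**Figure D3:**
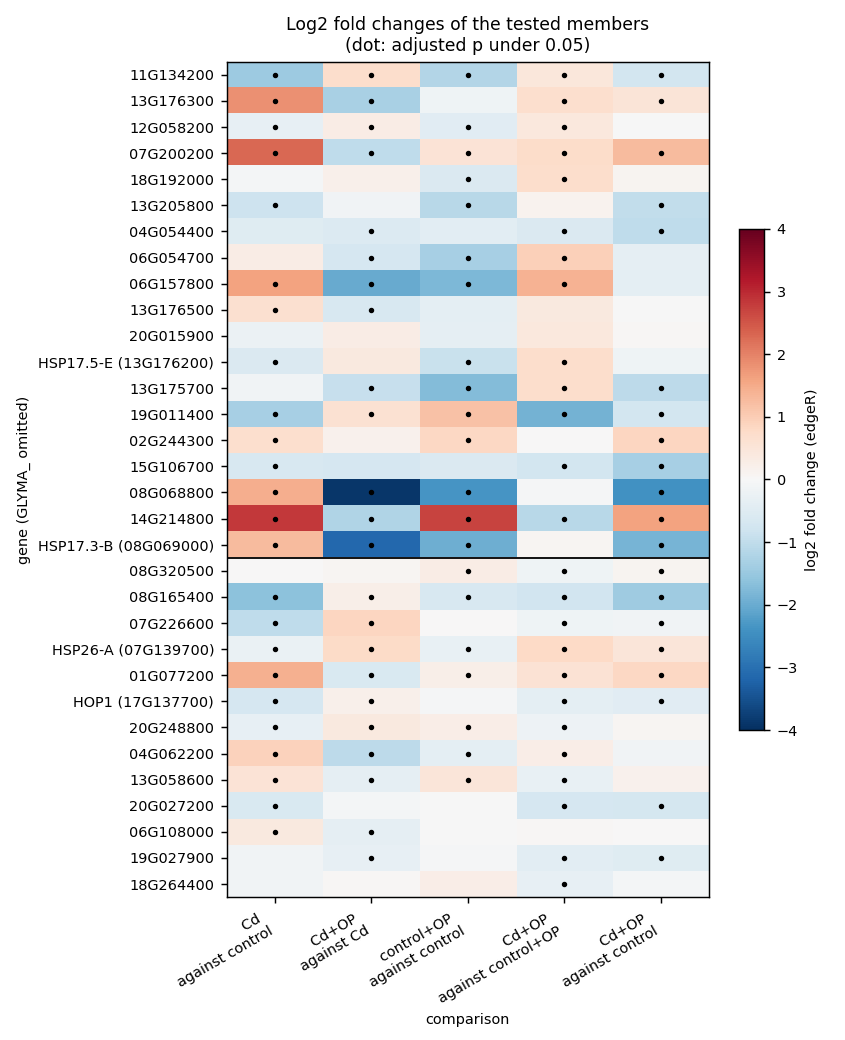
Log2 fold changes (edgeR) of the 32 tested members in 5 comparisons, small heat shock type genes above the line and the others below it; a dot marks an adjusted p under 0.05. The lowest value is that of GLYMA_08G068800 in Cd+OP against Cd, at -3.88.

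The metal in the presence of the bacterium was examined by setting Cd+OP against control+OP. GLYMA_06G157800 rose from 0.554, 0.869 and 0.569 to 1.05, 2.34 and 2.24 FPKM (log2 1.40 ± 0.3, adjusted p = 0.000234, edgeR, n = 3 per group), and GLYMA_06G054700 rose by 0.96. GLYMA_07G200200, GLYMA_18G192000, GLYMA_13G176300, GLYMA_11G134200 and GLYMA_12G058200 rose by 0.73, 0.70, 0.68, 0.44 and 0.43. GLYMA_19G011400 fell from 2.91, 3.96 and 2.87 to 0.740, 1.23 and 0.805 FPKM (log2 -1.88 ± 0.23, adjusted p = 1.01e-07, edgeR). HSP17.3-B and GLYMA_08G068800 were at log2 0.09 ± 0.36 and log2 -0.05 ± 0.47 with overlapping libraries, so no difference was detectable at 4 to 26 counts per library.

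HSP26-A rose with Cd in the presence of the bacterium (log2 0.79 ± 0.039, adjusted p = 4.42e-15, edgeR), whereas it fell with Cd alone. Phosphoglycerate kinase fell by 0.78 and HOP1 by 0.40, and GLYMA_01G077200 rose by 0.58. Of 32 tested members 12 (37.5%) rose and 13 (40.6%) fell, where 33.6% of all tested genes rose and 33.1% fell, 66.7% together. At least 2-fold, 1 member (3.12%) rose and 2 (6.25%) fell, against 6.03% and 6.28% of all tested genes. The rise was that of GLYMA_06G157800, with a control+OP mean of 0.664 FPKM. The falls were those of GLYMA_19G011400 and GLYMA_14G214800, with Cd+OP means of 0.927 and 0.854 FPKM. Each passed the filter only through other groups, so these shares are not set against those of all genes on equal terms. Of the 12 rises 9 held under every alternative. Of the 13 falls 4 held, those of GLYMA_08G165400, HOP1, GLYMA_19G011400 and GLYMA_19G027900. The number of falls was 5 to 6 with limma on log2 FPKM, 8 without Cd+OP library 2 and 7 without control+OP library 2.

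Set against control, Cd+OP roots had lower levels of HSP17.3-B, GLYMA_08G068800 and GLYMA_11G134200 (log2 -1.87, -2.42 and -0.74). GLYMA_07G200200 and GLYMA_13G176300 were higher (log2 1.28 ± 0.14 and log2 0.52 ± 0.092, adjusted p = 3.7e-08 and 2.79e-05, edgeR). HSP26-A was higher by 0.49 and GLYMA_01G077200 by 0.82, and phosphoglycerate kinase was lower (log2 -1.41 ± 0.034). GLYMA_12G058200 and GLYMA_04G062200 were at log2 -0.02 ± 0.084 and log2 -0.13 ± 0.089 and did not pass the test. Of 32 tested members 7 (21.9%) were higher and 13 (40.6%) lower, against 30.2% and 29.3% of all tested genes, 59.5% together. At least 2-fold, 2 members (6.25%) were higher and 6 (18.8%) lower, against 5.38% and 4.90%. Among the lower ones, GLYMA_08G068800, HSP17.3-B and GLYMA_15G106700 had Cd+OP means of 0.222, 0.294 and 0.792 FPKM and passed the filter only through other groups. Among the higher ones, GLYMA_14G214800 had means of 0.260 FPKM in control and 0.854 FPKM in Cd+OP, both under the filter. Of the calls at any fold, 4 of the 7 and 10 of the 13 held under every alternative.

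The interaction tests whether the Cd effect differed between roots with and without the bacterium. It was positive in 10 of 32 tested members (31.2%) and negative in 9 (28.1%), against 33.4% and 30.4% of all tested genes, 63.9% together. At least 2-fold, 3 members (9.38%) were positive and 5 (15.6%) negative, against 15.9% and 7.82%. Among the negative ones, GLYMA_14G214800, GLYMA_08G068800 and HSP17.3-B had a mean under 1 FPKM in at least 1 group. The most negative value was that of GLYMA_14G214800 (log2 -3.92 ± 0.62, adjusted p = 5.48e-06, edgeR), and the most positive that of GLYMA_11G134200 (log2 1.90 ± 0.12, adjusted p = 3.98e-13, edgeR), which fell with Cd alone and rose with Cd in the presence of the bacterium.

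**Figure D4:**
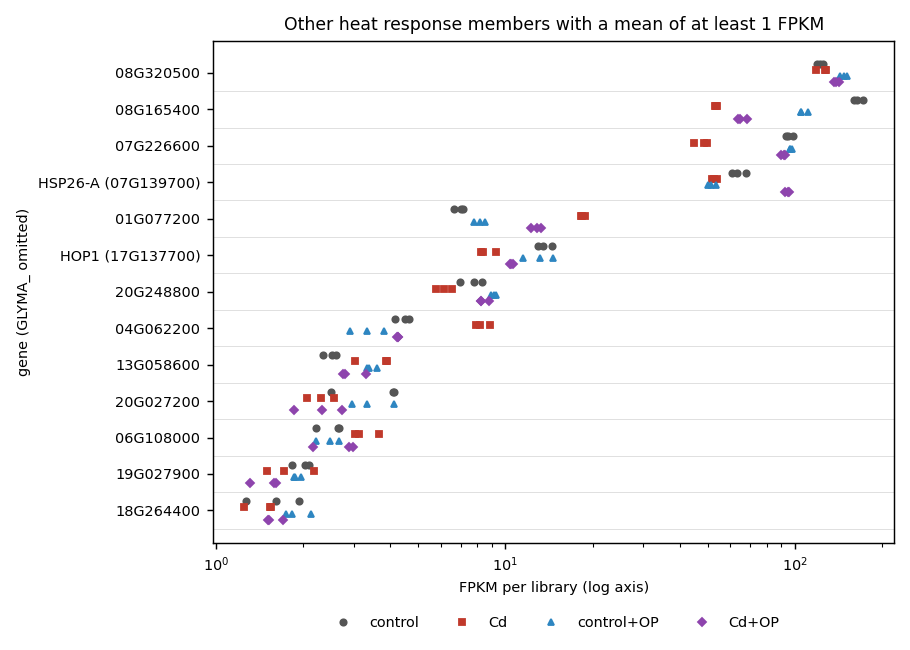
FPKM of the 13 tested members outside the small heat shock type in each of the 12 libraries, on a log axis, ordered by mean level; symbols mark the 4 groups. HSP26-A lay at 92.4 to 95.3 FPKM in Cd+OP and at 50.2 to 68.2 FPKM in the other libraries.

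The tested small heat shock type genes did not share 1 profile. Their highest group mean fell in Cd for 8 of 19, in control for 6, in Cd+OP for 4 and in control+OP for 1 (42.1, 31.6, 21.1 and 5.26%, against 32.6, 16.6, 21.7 and 29.1% of all tested genes). Their lowest group mean fell in control+OP for 12 of 19 (63.2%), against 28.9% of all tested genes. This ranks group means whether or not the groups differed by the test. HSP17.3-B and GLYMA_08G068800 had means of 0.263 and 0.218 FPKM in control+OP. In Cd+OP they had 0.294 and 0.222 FPKM, with no call between these groups. Both, with GLYMA_06G157800 and GLYMA_13G175700, were under 1 FPKM in control+OP and passed the filter through other groups. For the 13 other tested members the lowest mean fell in control+OP for 3. Both genes annotated to the peroxisomal matrix, GLYMA_14G214800 and GLYMA_02G244300, had their lowest mean in control.

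Many of these genes lie close together. Of the 48 small heat shock type genes 21 lay within 100 kb of another, and none of the other 23 members lay within 100 kb of a member. Runs of 5 genes stood on chromosomes 7 and 13 and a run of 3 on chromosome 8. Neighbours can be close copies, and the deposited values do not show how reads common to them were assigned, so the level of each is uncertain. Within a run the profiles could differ. On chromosome 13, GLYMA_13G176300 rose with Cd, while its neighbour HSP17.5-E (29047933 to 29048943) stood at 2.65, 2.38 and 3.37 FPKM in control and 1.53, 1.69 and 2.40 FPKM in Cd, with overlap. On chromosome 7, GLYMA_07G200200 reached 16.5 FPKM, while the highest value of its 4 neighbours in any library was 0.733 FPKM. On chromosome 8 all 3 genes were lower in both groups with OP than in both groups without it.

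**Figure D5:**
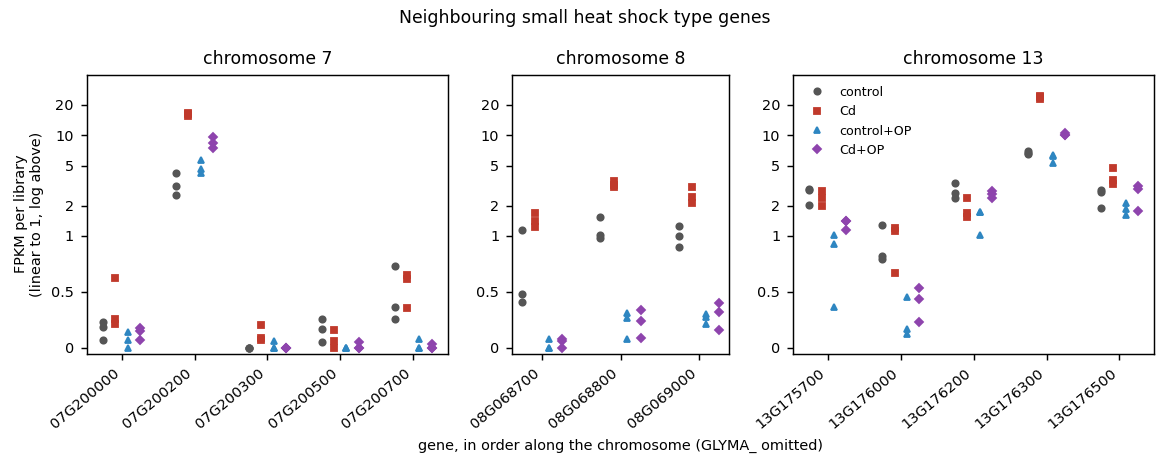
FPKM per library of neighbouring small heat shock type genes on chromosomes 7, 8 and 13, in chromosome order; the axis is linear to 1 FPKM and logarithmic above, and symbols mark the groups. The 3 chromosome 8 genes lay between 0 and 0.399 FPKM in the libraries with OP.

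Several members under the filter were also lower with the bacterium. They were chosen after their values were seen, and their tests come from the fit with no filter. HSP17.9-D (GLYMA_17G224900), just under the filter with a mean of 0.995 FPKM, stood at 1.27, 1.47 and 1.33 FPKM in control and 1.94, 1.82 and 2.09 FPKM in Cd. It stood at 0.214, 0.303 and 0.412 FPKM in control+OP and 0.383, 0.256 and 0.453 FPKM in Cd+OP. All 6 libraries with OP lay below all 6 without it (adjusted p = 1.39e-05 for control+OP against control and 1.43e-06 for Cd+OP against Cd, edgeR with no filter). GLYMA_08G068700, on the far side of GLYMA_08G068800 from HSP17.3-B, was at 0.41 to 1.67 FPKM without OP and 0 to 0.0828 FPKM with it. HSP22.0 (GLYMA_20G213900) is named for its change with Cd, not with the bacterium. It stood at 0.0738, 0.00610 and 0.0202 FPKM in control and 0.961, 0.371 and 0.241 FPKM in Cd (adjusted p = 0.00122, edgeR with no filter). In control+OP it stood at 0.2146, 0.2776 and 0.0651 FPKM, overlapping control. In Cd+OP it stood at 0.2231, 0.4035 and 0.3206 FPKM, overlapping Cd. Of the 38 members under the filter with any count, 5 (13.2%) rose and 2 (5.26%) fell with Cd, where 12.1% and 15.4% of the 17975 genes under the filter did. In Cd+OP against Cd 3 (7.89%) rose and 6 (15.8%) fell, against 15.5% and 7.15% of those genes. In control+OP against control 0 rose and 9 (23.7%) fell, against 9.15% and 5.45%.

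Folding genes outside the members were also counted. Of 266 tested protein folding genes 143 (53.8%) rose and 22 (8.27%) fell in control+OP against control, and of 207 with unfolded protein binding 112 (54.1%) rose and 18 (8.70%) fell, against 34.6% and 27.2% of all tested genes. With Cd against control 102 (38.3%) of the protein folding genes rose and 107 (40.2%) fell, near the 37.6% and 38.7% of all tested genes. Of 52 genes with the term heat shock protein binding, which include the 19 left out by the rule, 42 were tested. Of these 33 (78.6%) rose and 4 (9.52%) fell with Cd, and 7 (16.7%) rose and 27 (64.3%) fell in Cd+OP against Cd, where 36.4% and 34.6% of all tested genes did. Of 22 tested genes for the response to endoplasmic reticulum stress 10 (45.5%) rose and 6 (27.3%) fell with Cd, and 4 (18.2%) rose and 15 (68.2%) fell in Cd+OP against Cd. Of 14 tested genes for the response to hydrogen peroxide 6 (42.9%) rose and 5 (35.7%) fell with Cd, near the shares of all tested genes.

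Markers of root and of other tissues moved with the groups too. Root hair elongation genes (3, none at 0 throughout) summed to 23.6 to 25.7 FPKM in control, 19.6 to 20.7 in Cd, 20.3 to 21.4 in control+OP and 16.6 to 18.1 in Cd+OP. The lower sum in Cd did not hold gene by gene, since 2 of the 3 rose and 1 fell (median log2 0.32). Suberin synthesis genes (9, none at 0) summed to 8.49 to 9.32, 2.19 to 3.16, 9.44 to 10.9 and 7.20 to 7.60 FPKM in the same order, and all 4 that were tested fell with Cd. Light harvesting genes of green tissue (38, none at 0) summed to 72.6 to 78.1, 16.8 to 19.04, 52.1 to 56.2 and 34.4 to 36.7 FPKM, and 9 of 10 tested fell with Cd. Nutrient reservoir genes were listed as a possible sign of seed remnants, in which small heat shock proteins also accumulate. The list holds every gene with that term, and whether it marks seed remnants in these roots was not tested. These genes (103, 3 at 0 throughout) summed to 875 to 940.5, 414 to 435, 1183 to 1220.4 and 1087 to 1098 FPKM. Of 45 tested, 14 rose and 26 fell with Cd, and 23 rose and 13 fell in control+OP against control. Oxygen carrier genes, a sign of nodules (9, none at 0), summed to 756 to 832, 349 to 355, 452 to 491 and 399 to 422 FPKM. The lower sum in control+OP than in control again did not hold gene by gene, since 4 of 8 tested rose at least 2-fold and 4 fell (log2 -3.61 to 7.62, median 2.997), and with Cd 2 rose and 3 fell. The part of these tissues in the changes above was not tested.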

How the data were processed

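The authors deposited 1 table with FPKM values and whole-number expected counts per gene for 12 root libraries, per the file headers. RNA was isolated with TRIzol and libraries were run on a NovaSeq system, per the labels' protocols; the sources used here do not name the aligner, counter or build. The deposited counts were no plain tally (10000 values were 4, against 5019 at 3 and 3231 at 5). The counts quoted above for genes of low level may therefore stand for fewer sequenced fragments than their number. Genes averaging at least 1 FPKM (30340 of 49128) were tested with edgeR 4.0.16 in R 4.3.3 on the counts as deposited (TMM scaling, a mean for each of 4 groups). SE is the absolute log2 fold change divided by the square root of F. DESeq2 1.42.0 and limma 3.58.1 were alternatives. On simulated counts for Cd against control (30340 genes) edgeR called 46 of 50 genes changed 1.5-fold, all 50 at each of 2-fold, 4-fold and 0.5-fold, and 16 unchanged genes. The simulation gave every gene the same dispersion, changed few genes, left low-count genes out of those changed and had no excess of counts of 4. Its rates therefore need not hold for these data or for members with few counts. Members and lists were chosen with earlier results of these data known, and classes were set from Gene Ontology terms after the annotation was seen. Named genes are the 4 most abundant tested members of the small heat shock type and of the rest (finer classes of the rule could not be built) and the 6 highest and 6 lowest called in each comparison, 26 of 32 tested members; the other 6, where named, were chosen after their values were seen. Replicate numbers were not taken to pair the libraries. Correlations of deviations from group means were -0.008 to 0.07, although 10 of 18 pairs were best with their own number. No 2 libraries held identical values; a chi-square of each pair of same-group libraries, on counts over 4, had a median over genes of 0.549 to 0.631. Heat stress transcription factors and promoter motifs were not analysed here.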

Additional observations from a re-analysis of the deposited data

Results flagged for a closer look

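For 19 tested members the effect of Cd differed between roots with and without the bacterium by the interaction test (edgeR, adjusted p under 0.05 over 30340 genes). The interaction was positive in 31.2% and negative in 28.1% of tested members. Over all tested genes the shares were 33.4% and 30.4%, 63.9% together, so members were called about as often as other genes. Values below are the log2 Cd effect with OP minus that without OP. Negative values were found for the small heat shock type genes GLYMA_14G214800 (-3.92), GLYMA_07G200200 (-1.56), GLYMA_08G068800 (-1.51), GLYMA_08G069000, which is HSP17.3-B (-1.17), and GLYMA_13G176300 (-1.15). They were also found for the DNA repair gene GLYMA_01G077200 (-0.84), the refolding genes GLYMA_13G058600 (-0.83) and GLYMA_04G062200 (-0.64), and the SUMO gene GLYMA_08G320500 (-0.19). Positive values were found for the small heat shock type genes GLYMA_11G134200 (1.90), GLYMA_13G176200, which is HSP17.5-E (1.29), GLYMA_13G205800 (0.95), GLYMA_18G192000 (0.78), GLYMA_12G058200 (0.76) and GLYMA_06G054700 (0.66). They were also found for HSP26-A (GLYMA_07G139700, 1.06), phosphoglycerate kinase (GLYMA_08G165400, 0.85), GLYMA_07G226600 (0.84) and HOP1 (GLYMA_17G137700, 0.26). The calls for GLYMA_08G068800, HSP17.3-B, GLYMA_06G054700, HOP1 and the SUMO gene were lost under 5 or 6 alternatives each, with adjusted p up to 0.117, 0.083, 0.12, 0.142 and 0.181.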

How the results depend on the processing

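No result reversed under the 21 alternatives, and 138 of 192 single-gene results kept their call under all that tested the gene. Median of ratios scaling changed none. The alternatives included a fit on only the libraries of the groups compared. For the interaction, which takes in all 4 groups, that was the main fit again and could change no call. With a mean of at least 5 FPKM, which left 14 members, the counts became 4 higher for Cd against control, 4 lower for Cd+OP against Cd, 4 higher and 7 lower for control+OP against control, 5 lower for Cd+OP against control+OP, 4 higher and 5 lower for Cd+OP against control, and 5 negative for the interaction. With no filter 23 members were lower in control+OP against control. Members lower in Cd+OP against control+OP numbered 13, but 5 and 6 with limma on log2(FPKM + 0.1) and log2(FPKM + 1), and 7 to 13 with single libraries left out. The limma fits used the deposited FPKM without TMM scaling. Their median log2 change over all genes in this comparison was 0.079 and 0.065, against 0.009 in the main fit. Replicate numbers gave correlations of deviations of -0.008 to 0.07, and with the replicate block 14 members were lower in Cd+OP against Cd (15 without it), 12 in Cd+OP against control+OP (13) and 13 in Cd against control (12), with no other count changed. The block ended the calls of GLYMA_06G108000 in Cd+OP against Cd (adjusted p = 0.0574) and GLYMA_18G264400 in Cd+OP against control+OP (adjusted p = 0.0557) and added that of GLYMA_04G054400 in Cd against control (adjusted p = 0.042, edgeR). For Cd against control, GLYMA_02G244300 was lost without Cd library 2 or 3 or control library 1 or 3 (log2 0.35 to 0.62), GLYMA_06G108000 without any 1 of the 6 libraries compared (0.24 to 0.38), GLYMA_13G176500 without Cd library 2 or control library 3 (0.41 and 0.42), HSP17.5-E without Cd library 1 or 2 or control library 3 (-0.55 to -0.46), and GLYMA_15G106700 without Cd library 1, control library 3, Cd+OP library 1 or any control+OP library (-0.65 to -0.50). For Cd+OP against Cd, the calls of GLYMA_14G214800 and GLYMA_13G176500 were lost without Cd library 2 (-0.95 and -0.47), the latter also without Cd+OP library 2 (-0.41). In the same comparison, those of HOP1 were lost without Cd library 1 or 3 or Cd+OP library 1 (0.17 to 0.19), of GLYMA_19G011400 without any Cd library or Cd+OP library 2 (0.35 to 0.65), of GLYMA_04G054400 without Cd library 2 or 3 or Cd+OP library 3 (-0.53 to -0.30), of GLYMA_06G108000 without Cd library 2 or 3 or Cd+OP library 2 (-0.39 to -0.22), and of GLYMA_19G027900 without Cd library 3 or Cd+OP library 2 (-0.18 and -0.24). For Cd+OP against control+OP, the rises of GLYMA_04G062200, GLYMA_13G175700 and HSP17.5-E were lost without control+OP library 2 (0.18), 3 (0.37) and 3 (0.51), that of GLYMA_13G175700 also without Cd+OP library 1 or 3 (0.65 and 0.64). Its falls were lost for GLYMA_04G054400 without Cd+OP library 3 or control+OP library 1 or 2 (-0.56 to -0.33), GLYMA_13G058600 without Cd+OP library 2 or 3 or control+OP library 3 (-0.26 to -0.25), GLYMA_14G214800 without library 2 of either group (-0.957 and -0.855), GLYMA_15G106700 without Cd+OP library 1 or 3 or control+OP library 2 or 3 (-0.75 to -0.425), GLYMA_18G264400 without Cd+OP library 1 or 2 or control+OP library 2 or 3 (-0.37 to -0.25), GLYMA_20G027200 without library 2 of either group (-0.525 and -0.51) and GLYMA_20G248800 without Cd+OP library 1 or 2 or any control+OP library (-0.20 to -0.17), and with limma for GLYMA_07G226600 (-0.084) and GLYMA_08G320500 (-0.09). For Cd+OP against control, GLYMA_02G244300 was lost without control library 1 or 3 (0.65 and 0.56), GLYMA_19G011400 without Cd+OP library 1 (-0.59), GLYMA_20G027200 without Cd+OP library 2 (-0.55), and GLYMA_08G320500 (0.12 over all libraries) without any control or Cd library or Cd+OP library 2 (0.037 to 0.11). The cause was not tested.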
